A study of Homo sapiens with 2 samples.

Results

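Of 49746 m6A peaks listed for Huh-7 cells, 10286 carried the authors' region name for coding exons, and these peaks, in 5633 genes, are described here. They made up 20.7% of the list (exact Clopper-Pearson 95% interval 20.3 to 21.0%). Members were taken by that region name alone, with no limit on fold, width or host level. Huh-7 is an established human hepatocellular carcinoma line, listed as WT in genotype and grown without treatment. After removal of ribosomal RNA and fragmentation, its RNA was either precipitated with an antibody against m6A (the IP library) or sequenced as it was (the input library). There was 1 library of each kind, so no spread between replicates can be given and no test was made. All intervals cover counting error only, and genes or peaks of 1 library are not independent replicates.

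N6-methyladenosine, m6A, is placed on mRNA in the nucleus by a complex built around METTL3 and METTL14, and is read by YTH-domain proteins that steer mRNA decay, splicing and translation. It lies mostly near stop codons and in 3' UTRs, and inside coding sequence mostly in unusually long internal exons. Short internal exons are shielded by the exon junction complexes that splicing leaves beside exon borders. The fragments pulled down are longer than the mark, so a peak marks a neighbourhood, not a methylated base.

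The input library carried a hepatocyte profile. All 8 hepatocyte markers (such as ALB and HNF4A) were at 1 FPKM or more, with a sum of 3077 FPKM and levels from 55.1 to 1202 FPKM. FPKM is the number of fragments scaled to transcript length and library size. Of 5 adipocyte markers, looked at because the protocol text speaks of adipose RNA, 2 were listed, none reached 1 FPKM and the highest was 0.718 FPKM. Of 5 endothelial markers 1 reached 1 FPKM and of 5 leukocyte markers 1, at levels no higher than 1.72 FPKM. Fibroblast markers did not exceed 1.46 FPKM. Of 4 bile duct markers 3 reached 1 FPKM, with 35.7 FPKM as the highest. The read depth of either library is unknown, because the deposited levels are FPKM and not counts.

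Sequence could be set beside a peak only where the peak covered the start of its gene. Among coding exon peaks of at most 1000 nt whose width fell on the 25-base grid explained with the widths, 14 covered the first 50 bases of their RefSeq gene. The motif GGAC, the core of the sequence that the m6A methyltransferase prefers, was searched on the transcribed strand only, and it was in 4 of the 14 windows (28.6%, 8.39 to 58.1%). It was in 19.9% of the same windows of 16526 coding genes (19.3 to 20.5%). The triplet ATG, which spells a start codon where it is in frame, was in 7 of the 14 (50.0%, 23.0 to 77.0%) and in 34.5% of all such windows. The 4 windows with GGAC come first, because they hold the methylation motif inside a listed peak. 3 with ATG follow, because they show how close to a gene's first base a peak listed under coding exons can lie. Capitals mark GGAC in the first 4 and the first ATG in the other 3. WDR18 also holds an ATG and PSMC5 a second one, both in lower case. All are RefSeq sequence of GRCh38.p14, 5′ to 3′ on the gene's strand.
SMPD4 (chr2:130181728-130181757, minus strand): ctaaGGACcactccctcccccgcactcctg
ARL6IP4 (chr12:122980841-122980870, plus strand): cgccactcgcggcGGACggcggccagttcc
WDR18 (chr19:984365-984394, plus strand): catggaggtggccgtgtgtacGGACtcggc
PANK2 (chr20:3889387-3889416, plus strand): gctctggctGGACtgccgcggaggaggcga
RNF217 (chr6:124962545-124962574, plus strand): ATGggcgaggagcagagcacggtgagcggc
MANF (chr3:51385311-51385340, plus strand): ggaggaggaggaggaggaggaggATGagga
PSMC5 (chr17:63827733-63827762, plus strand): agtgagggaagcgATGggcgcgggaatggc
The 4 peaks with GGAC had log2 folds of IP over input of 0.78 in SMPD4 (a sphingomyelinase), 0.74 in ARL6IP4, 0.66 in WDR18 and 0.71 in PANK2 (a pantothenate kinase of coenzyme A synthesis). Of the peaks with ATG and no GGAC, that in MANF, a secreted protein of the endoplasmic reticulum stress response, had 3.48, that in RNF217, a RING finger protein, 2.48, and that in PSMC5, an ATPase subunit of the proteasome, 1.31. The others with ATG, not printed, had 1.42 in SLC27A3, 0.88 in PPP4R3A and 0.61 in LSR, so the range with ATG took in the values with GGAC. These windows say nothing of peaks elsewhere in a gene, since no genome sequence was used here.

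Coding exon peaks were wide. The median ran 1759 nt from first to last base (quartiles 451 and 6054 nt), against 526 nt for 3' UTR peaks and 1376.5 nt for 5' UTR peaks. The range was 101 to 741019 nt, and 60.6% of coding exon peaks (59.6 to 61.5%) were over 1000 nt, against 32.9% in 3' UTRs and 55.0% in 5' UTRs. Over 5000 nt lay 29.0% of coding exon peaks. The width runs across any introns in between, so it is not the length of mRNA covered.

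The 5 narrowest peaks with an adjusted p under 0.001 were 101 nt each, in ACTG1 (cytoplasmic actin), FN1 (fibronectin), YBX1 (an mRNA-binding cold shock protein), NR2F6 (an orphan nuclear receptor) and H2AC4 (a replication-dependent histone). Other peaks shared this width, and these 5 were the ties with the lowest adjusted p. All 5 hosts were highly expressed, from 52.9 FPKM for YBX1 to 277.6 FPKM for FN1. The log2 folds were low, from 0.35 in FN1 to 0.69 in ACTG1. Given that choice, these levels and folds do not describe the narrowest peaks at large. The widest peaks belonged to genes of large genomic span. GPC6, a cell surface heparan sulfate proteoglycan, had 1 of 741019 nt (log2 fold 1.75) and another of 317847 nt (0.79). FAM155A had 1 of 655477 nt (5.05), TTC28 1 of 381854 nt (0.94), and FGF12, an intracellular fibroblast growth factor homologue, 1 of 337616 nt (2.96). FAM155A, at 0.0493 FPKM, and FGF12, at 0.547 FPKM, were below the level used for expressed genes.

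Widths were not spread evenly. Many equalled 1 plus a multiple of 25, as peak ends on a grid of 25 bases would give, and 3394 coding exon peaks (33.0%, 32.1 to 33.9%) did so, against 68.5% in 3' UTRs, 34.1% in 5' UTRs and 89.6% in introns. An intron inside a peak would shift most widths off the grid, and widths with no grid would fall on it in 4% of cases. Exon positions were not read, however, and a peak can leave the grid without an intron: a 3' UTR peak of BAHD1 was off it at only 125 nt. On-grid coding exon peaks had a median width of 326 nt, close to the 376 nt of on-grid 3' UTR peaks, and off-grid ones 3679 nt. The share on the grid fell from 99.9% at 101 to 150 nt, to 52.7% at 501 to 750 nt, 15.2% at 1001 to 2000 nt and 4.12% over 5000 nt. Above 1000 nt, then, most coding exon peaks were off the grid, and how many intron bases their widths count was not measured.

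**Figure D1:**
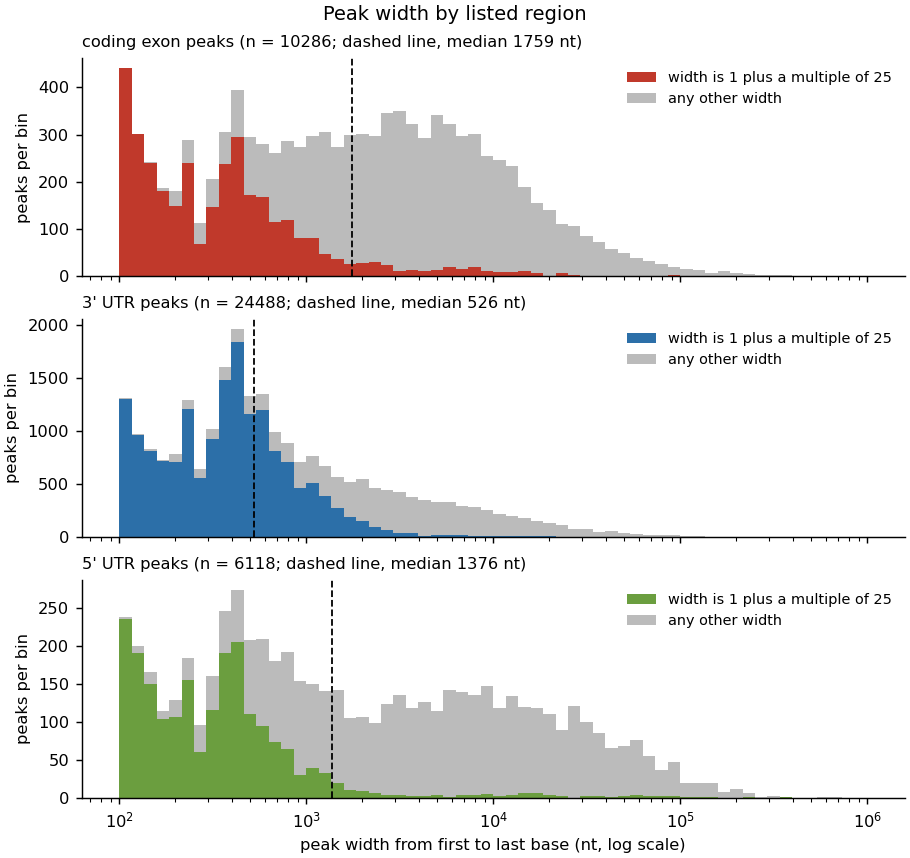
Number of peaks by width (x axis, nt from first to last base, log scale) for coding exon, 3' UTR and 5' UTR peaks, with widths of 1 plus a multiple of 25 in colour and all other widths in grey; dashed lines are medians. The coloured coding exon peaks, 33.0% of the total, sit mostly below 1000 nt, and the grey ones form the broad hump above it.

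A smaller set of long peaks was on the grid. Of 6231 coding exon peaks over 1000 nt, 440 were on it, where 1 in 25 would give 249. Over 5000 nt, however, 123 of 2984 were on it (4.12%), near the 4% of widths with no grid. The 440 lay in 402 genes with a median of 1.54 on the log2 scale, where off-grid peaks over 1000 nt had 0.87. Of the 440, 33 were in 19 genes of a list of 43 genes known for a very long coding exon, and 28 in ZNF zinc finger genes. In coding genes at 1 FPKM or more, these lists held 292 and 162 of 9254 coding exon peaks of any width. Of the 2836 on-grid ones among these they held 145 and 89. Their share of off-grid peaks over 1000 nt was not counted. The examples here were chosen after their values were seen and are not a ranking. Those of AHNAK, MKI67 and ZNF646 and the widest of EPPK1 were over 5000 nt, where being on the grid does not set a peak apart. AHNAK, a giant scaffold protein with 1 huge coding exon, had a peak of 10126 nt at chr11:62519901-62530026 with a log2 fold of 1.99. MKI67, the proliferation antigen Ki-67, had 1 of 5951 nt at chr10:128103437-128109387 with 2.12, ZNF646 had 1 of 5701 nt with 2.71, and SON, a splicing cofactor of nuclear speckles, had 1 of 4376 nt with 2.28. All 10 coding exon peaks of EPPK1, a plakin family cytolinker, were on the grid, with log2 folds from 1.02 to 3.92, and the widest had 5726 nt and 3.49. RAI1, a chromatin-associated transcriptional regulator, had 7 peaks, 6 of them on the grid, and the strongest (1926 nt) reached 3.62.

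The fold of IP over input, like the p-values, is the authors' own and is used only to rank and describe peaks within their list. Coding exon peaks had a median fold of 1.84 (quartiles 1.55 and 2.54), below the 2.09 of 3' UTR peaks and the 2.32 of 5' UTR peaks. At least 2-fold were 41.7% of coding exon peaks, against 56.4% of all listed peaks, and at least 4-fold 12.0%, against 19.7%. An adjusted p under 0.001 was given to 40.2%, against 44.1% of all listed peaks. Both 2-fold and an adjusted p under 0.001 were met by 2323 coding exon peaks (22.6%, 21.8 to 23.4%), against 31.5% of all listed peaks, 34.6% in 3' UTRs and 36.7% in 5' UTRs. So coding exon peaks were weaker on each of these measures. On-grid peaks had a median log2 fold of 1.00 and off-grid ones 0.83. A listed peak on the opposite strand overlapped 5.29% of coding exon peaks, against 10.5% in 3' UTRs and 12.3% in 5' UTRs.

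The strongest coding exon peaks in protein-coding genes at 5 FPKM or above, taken at an adjusted p under 0.001, were led by genes with near-identical copies. CBSL, a copy of the cystathionine beta-synthase gene, had a log2 fold of 8.81, EIF3CL, a copy of the EIF3C initiation factor gene, 6.31, and GOLGA8B, of a multicopy golgin family, 4.85. The sources used here do not say how reads were shared between such copies, so these folds are uncertain. NSF, the ATPase that takes apart SNARE complexes after vesicle fusion, came second with 7.56, but it too has a partial copy in the genome, and its adjusted p of 0.000391 was the highest of the 10. TET3, a 5-methylcytosine dioxygenase, reached 4.64 at chr2:73986403-73993383, and MAP3K4, a stress-activated kinase kinase kinase, 4.19. ARHGEF5, a guanine nucleotide exchange factor with a near-identical neighbour, and EPPK1 both reached 3.92, BAHD1, a heterochromatin protein, 3.73, and AFF1, a subunit of transcription elongation complexes, 3.70. BAHD1 and AFF1 were at 7.75 and 15.2 FPKM.

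Most hosts had 1 coding exon peak (3335 of 5633, 59.2%), 1276 had 2, 496 had 3, 254 had 4, and 272 had 5 or more, with 32 at 10 or more. TTN, the giant muscle protein titin, had 89, at 4.22 FPKM, with log2 folds from 0.49 to 3.29 and a median of 0.87. Of these 89, 60 overlapped a listed peak on the other strand, where the listed genes are TTN-AS1 and further unnamed transcripts, and 41 were on the grid. DST, the cytolinker dystonin, had 26 and MACF1, a cytolinker of actin and microtubules, 17. The adhesion receptor gene ADGRV1 and the myosin phosphatase partner MPRIP had 15 each, KIAA1109 14, and NEB (nebulin) and RNF213 (an E3 ligase) 13 each. UBR4, USP34 and UTRN had 12 each. The folds of these families of peaks differed: the 12 of UBR4, an N-recognin ligase, all stayed between 0.43 and 0.63 on the log2 scale, while the 13 of NEB ran from 0.84 to 2.37. Peaks of 1 gene share a transcript and a host level and are not independent.

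Midpoints of coding exon peaks were spread along the whole gene. In deciles of the genomic span, from the start of transcription to its end, the shares were 5.19, 6.42, 7.32, 8.63, 9.35, 10.2, 12.6, 13.5, 14.5 and 12.3%, so they rose towards the 3' end and dipped in the last decile. Of 3' UTR peaks 57.0% lay in the last decile and of 5' UTR peaks 42.8% in the first. In genes of 50000 bases or less only 7.16% of coding exon midpoints were in the last decile, and among on-grid peaks 16.7% were. Genomic deciles include introns, so they are not positions along the mRNA.

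**Figure D2:**
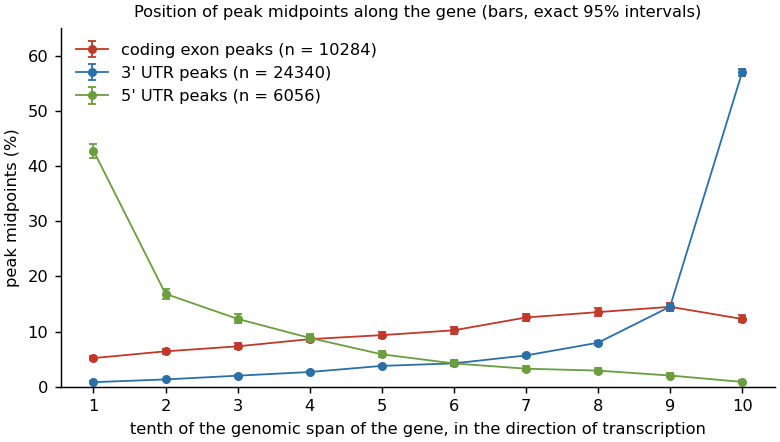
Share of peak midpoints (y axis, %) in each decile of the genomic span of the gene (x axis, 1 at the transcription start), with exact 95% intervals, for peaks whose midpoint lay inside the gene. Coding exon peaks climb from 5.19% to 14.5% in decile 9, while 3' UTR peaks gather in the last decile (57.0%) and 5' UTR peaks in the first (42.8%).

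The nearest 3' UTR peak of the same gene was usually far away in genomic distance. For 8793 coding exon peaks in a gene with a 3' UTR peak, the median gap was 8197 bases (quartiles 1844 and 26234), introns included. Only 23 overlapped it (0.262%) and 547 lay within 100 bases (6.22%, 5.72 to 6.75%). In 94.3% the 3' UTR peak lay downstream. CEBPA, an intronless gene of a liver and myeloid transcription factor, shows the near case: its 476 nt coding exon peak at chr19:33301783-33302258 nearly touched its 1526 nt 3' UTR peak at chr19:33300233-33301758, with log2 folds of 0.94 and 4.64.

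A 3' UTR peak was no more frequent in hosts of coding exon peaks than in other genes, as listed. Among the 10547 protein-coding genes at 1 FPKM or more, 4871 (46.2%) had a coding exon peak, and 88.0% had a 3' UTR peak. The 3' UTR share was 88.0% in hosts (87.1 to 88.9%) and 88.0% in the 5676 others (87.1 to 88.8%), and 89.9% in hosts of a 5' UTR peak. Of the 4871 hosts, 2352 (48.3%) had coding exon and 3' UTR peaks, 1936 (39.7%) had peaks in all regions of the mRNA, 376 (7.72%) had coding exon peaks alone, and 207 (4.25%) had coding exon and 5' UTR peaks. By deciles of gene length, hosts had the lower share in the 8 shortest, from 65.1% (58.9 to 70.9%) against 73.8% (70.6 to 76.8%) in decile 1, over 83.1 against 90.6% in decile 4, to 90.0 against 90.5% in decile 7 and 93.0 against 95.1% in decile 8. In deciles 9 and 10 the order turned, with 92.6 against 91.5% and 93.8 against 91.7%. The intervals were apart in decile 4 alone. In the decile of highest input level 82.4% of hosts (78.5 to 85.8%) and 77.5% of other genes (73.9 to 80.7%) had one.

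The kind of transcript through which a peak got its region name differed between regions. Of 3' UTR peaks, 6247 (25.5%, 25.0 to 26.1%) were listed through a transcript marked for nonsense-mediated decay, the pathway that degrades mRNAs with a premature stop codon. In such a transcript the sequence after the early stop counts as 3' UTR, though it can be coding sequence in the main mRNA. Of coding exon peaks 147 (1.43%) and of 5' UTR peaks 146 (2.39%) were listed that way. The 3' UTR peaks named through decay transcripts looked unlike the others: their median width was 1226 nt against 451 nt, 40.3% were on the grid against 78.1%, and 33.4% had their midpoint in the last decile of the gene against 65.1%. At least 1 of them lay in 24.5% of coding exon hosts (23.2 to 25.7%) and in 32.6% of the other coding genes (31.3 to 33.8%).

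APOB, the core protein of very low-density lipoprotein, is an example, chosen after its values were seen. At 502.4 FPKM it had 6 peaks listed under 3' UTR and none under coding exons, and 4 of the 6 were named through a decay transcript. One of those 4, at chr2:21006274-21012474 on the minus strand, was 6201 nt wide, on the grid, with a log2 fold of 2.37 and its midpoint lay at 0.814 of the gene's span, counted from 0 at the start to 1 at the end. With coding exon and UTR peaks limited to those on protein-coding transcripts, 79.1% of hosts (78.0 to 80.3%) and 74.3% of the other coding genes (73.2 to 75.4%) had a 3' UTR peak. That limit acts on coding exon peaks too and leaves 4787 hosts, and what moved the shares was not tested. The count of 10286 may leave out peaks in coding sequence that were named 3' UTR through decay transcripts, which was not measured. Limited to peaks that reached 2-fold and an adjusted p under 0.001, the shares were 61.3% (58.8 to 63.8%) and 54.4% (53.4 to 55.4%). Limited to peaks of at most 1000 nt they were 68.8 and 68.1%, and limited to on-grid peaks 68.4 and 68.8%.

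Within a gene, the peak listed under 3' UTR was usually the stronger. A peak across the stop codon can be listed under either region, and the part of such peaks in this comparison was not tested. In the 4288 expressed coding genes with both, the strongest coding exon peak exceeded the strongest 3' UTR peak in 1246 (29.1%, 27.7 to 30.4%). The median difference, coding exon minus 3' UTR, was -0.37 on the log2 scale. The 3' UTR peak was more than 2-fold higher in 1208 genes and the coding exon peak in 259. The share with the coding exon higher hardly moved with host level, from 27.2 to 33.3% over deciles of input FPKM, and in the 976 genes with 1 peak of each kind, where neither side had more chances at a high value, it was 32.6%. On protein-coding transcripts only it was 31.2%. Both peaks had an adjusted p under 0.001 in 1263 genes at 5 FPKM or more, and in 413 of these (32.7%) the coding exon was higher.

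Genes at both ends of that comparison stood far from equality. Among these 1263 genes, the coding exon led by most in CEBPZ, a nucleolar relative of the C/EBP factors, where its peak at chr2:37222458-37228881 had a log2 fold of 3.66 and the 3' UTR 0.76. TET3 followed with 4.64 and 1.88. SRRM2, the large serine and arginine repeat protein that scaffolds nuclear speckles, had 3.36 and 0.63. Its coding exon peak of 826 nt lay at chr16:2759716-2760541, it had 7 coding exon peaks in all, and its strongest 3' UTR peak was named through a decay transcript. RRM2, the small subunit of ribonucleotide reductase that makes deoxynucleotides for DNA synthesis, had 3.38 and 0.66. This coding exon peak was listed at chr2:10210420-10211395, at the far end of the gene's listed span and through another transcript than the 3' UTR peak at chr2:10129246-10129496, which lay upstream of it. MANF had 3.48 and 1.03, with both peaks named through a decay transcript. RFFL, RAI1, PLEKHM2, WDFY3 and BPTF completed the 10.

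At the other end DAPK3, a death-associated kinase, had 0.85 in its coding exon and 5.03 in its 3' UTR. In CEBPA, whose 3' UTR peak covered 58.7% of the gene's span, the values were 0.94 and 4.64, and in FAM53C 0.83 and 4.33. GON4L had 1.76 and 5.11, UHRF1, which maintains DNA methylation at replication, 0.73 and 3.91, and ZFP36L2, a protein that promotes decay of AU-rich mRNAs, 0.74 and 3.76. COX10, whose 3' UTR peak was named through a decay transcript, ATP2B1 and SLC38A10 lay at this end too. These genes were chosen for this difference, so their values are a description.

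**Figure D3:**
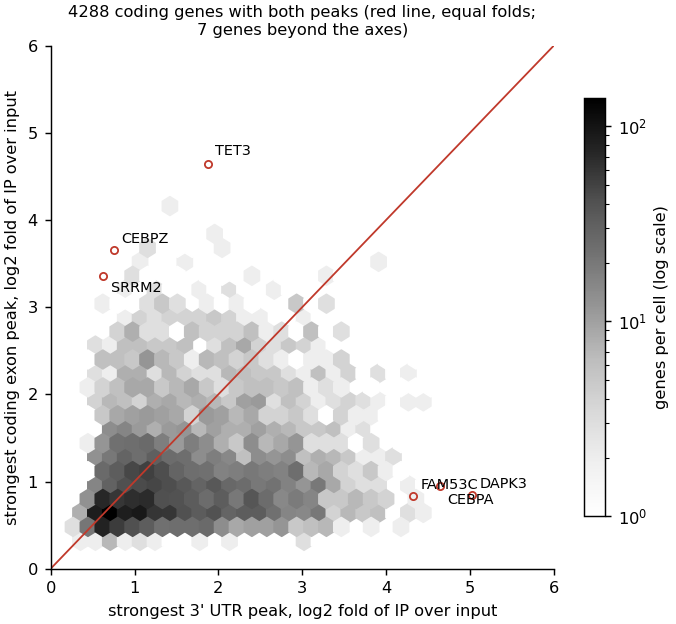
Log2 fold of the strongest coding exon peak (y axis) against that of the strongest 3' UTR peak (x axis) in 4288 coding genes at 1 FPKM or more with both; shading is the number of genes per cell on a log scale, and the red line marks equal folds. Most genes lie below the line (the coding exon was higher in 29.1%), with TET3, CEBPZ and SRRM2 far above it and DAPK3, CEBPA and FAM53C far below.

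Genes with a coding exon peak and no 3' UTR peak numbered 583 at 1 FPKM or more. Their median input level was 5.60 FPKM, against 5.92 in hosts with both, and their median genomic span was 22074 bases, against 49403. The 10 at the highest level were FTL, GAPDH, APOA2, GSTP1, HSP90AB1, GPC3, RBP4, COL2A1, TPI1 and H2AC4. Most of these peaks were shallow: the strongest was 0.34 on the log2 scale in FTL, the ferritin light chain at 2200 FPKM, 0.53 in the glycolytic GAPDH, 0.66 in the apolipoprotein APOA2, 0.29 in the retinol carrier RBP4, and 0.33 in the chaperone HSP90AB1, which had 4 between 0.31 and 0.33. COL2A1, a fibrillar collagen, had 4, from 0.44 to 1.48, and GPC3, a glypican re-expressed in liver cancer, had 1 of 51495 nt at 1.11. Those 2 were the only ones of the 10 past 2-fold.

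Host level had a weak relation to having a coding exon peak and a clearer one to its fold. Hosts had a median of 5.91 FPKM and other coding genes 5.33 FPKM. The share of coding genes with a coding exon peak was 37.0% in the lowest decile of input level, peaked at 51.6% in decile 6 and was 42.0% in the highest. A coding exon peak of 4-fold or more, found in 6.11% of these genes, went from 10.9% in the lowest decile (9.08 to 12.9%) to 2.18% in the highest (1.39 to 3.25%). The median log2 fold of all coding exon peaks went from 1.31 to 0.58 over the same deciles. Fold and input level come from the same input library, and the part of level in the order of folds was not tested. Among hosts at extreme levels, AFP, the fetal albumin, at 2380 FPKM, had 4 peaks from 0.29 to 0.46, ALB 1 at 0.44, the elongation factor EEF1A1 1 at 0.28, and FN1 10 from 0.23 to 0.41. Outside the coding genes at 1 FPKM or more there were 667 hosts with a level under 1 FPKM and 86 with no listed level.

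**Figure D4:**
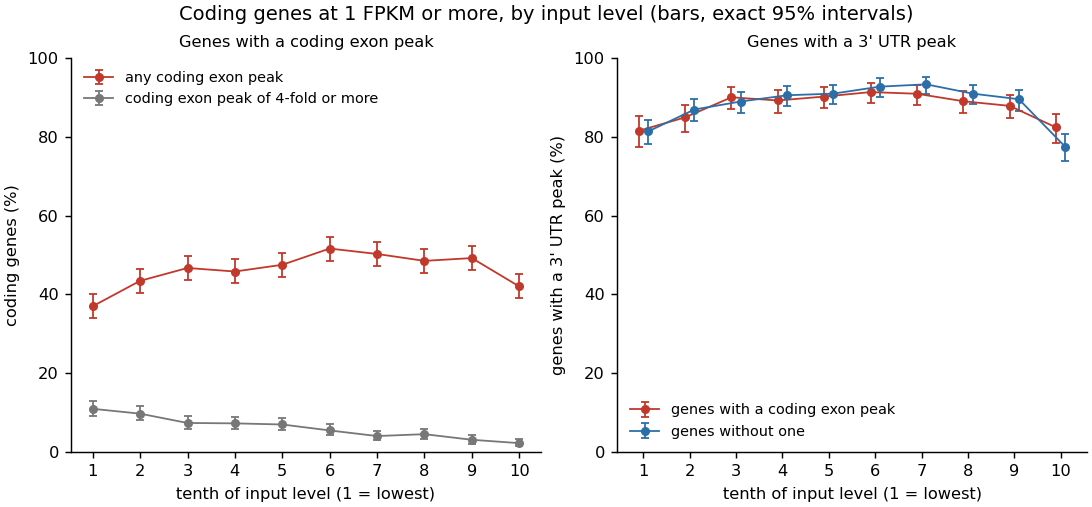
Left, share of coding genes (y axis, %) with any coding exon peak (red) or one of 4-fold or more (grey) by decile of input FPKM (x axis, 1 lowest). Right, share with a 3' UTR peak among hosts (red) and other coding genes (blue); bars are exact 95% intervals. Any coding exon peak runs between 37.0 and 51.6%, strong ones thin out from 10.9 to 2.18%, and the curves on the right lie close together except in the highest decile.

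Gene length had a larger gradient. The share with a coding exon peak rose from 24.2% in the decile of shortest genomic span to 66.8% in the longest. The median span was 45895 bases in hosts and 24486.5 in other coding genes, whose median levels were close. Neither length nor input level was matched in the lists that follow, and the part of either was not tested. Median input level differed between lists: 2.61 FPKM in ZNF zinc finger genes, 29.5 in the proteasome and 62.1 in cytosolic ribosomal proteins. Over all coding genes it was 5.58 FPKM.

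Classes of host genes were described with 26 lists, each by the share of its members at 1 FPKM or more that had a coding exon peak, beside the 46.2% of all coding genes. A strict peak, here one that reached 2-fold and an adjusted p under 0.001, was found in 14.3% of all coding genes. Highest stood lists of large proteins. All 23 genes of the giant cytoskeletal list, which also holds other giant genes such as BIRC6 and UBR4, had a coding exon peak (85.2 to 100%). A strict one was in 13 of them. BIRC6, an inhibitor of apoptosis, led with 3.57, and UBR4 was at 0.63. Of 12 collagens 11 had one (61.5 to 99.8%), with COL1A2 at 1.77 and COL12A1 at 1.71, both barely above 1 FPKM, and COL5A2 lowest at 0.61. The collagen left over was COL6A1.

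Genes with a very long coding exon combined frequency with strength. Of 42 at 1 FPKM or more, 35 (83.3%, 68.6 to 93.0%) had a coding exon peak, 31 (73.8%, 58.0 to 86.1%) a strict one and 25 one of 4-fold or more. The median of their strongest coding exon peaks was 2.37 on the log2 scale, against 0.96 over all hosts. In 23 of the 33 members with both (69.7%, 51.3 to 84.4%) the coding exon was stronger than the 3' UTR, against 29.1% of all coding genes. TET3 and EPPK1 were highest. The TET3 peak, 6981 nt wide and off the grid, had its midpoint near the gene's start, at 0.0287 of the span. The next strongest of the 6 TET3 peaks reached 2.49. ARID1A, a SWI/SNF remodeller subunit, at 0.81 with 7 peaks, and POGZ, a heterochromatin-binding zinc finger protein, at 0.54, were lowest. The list was written from general knowledge of these genes and with earlier results of these data known, and exon lengths were not measured. Of the 7 members without a coding exon peak 4 had a 3' UTR peak named through a decay transcript, and ANKRD11, RESF1, ZNF292 and CHAMP1 were among the 7.

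Chromatin regulators had a coding exon peak in 28 of 36 (77.8%, 60.8 to 89.9%) and a strict one in 17 (47.2%), and 7 genes of the list of 37 also stood in the very long exon list. TET3 and ARID2, another SWI/SNF subunit, led with 4.64 and 3.27, while CHD4 and SMARCB1, both remodeller subunits, were at 0.53. EZH2, DNMT1 and HDAC1 had none. Mitosis and kinetochore genes had one in 22 of 25 (88.0%, 68.8 to 97.5%), with 8 strict. CENPF, a kinetochore protein with long coding exons, reached 2.94 and KNL1, the kinetochore scaffold, 2.57, while AURKA and CDC20 were at 0.48. Kinesins had one in 17 of 25 (46.5 to 85.1%), with 6 strict, led by KIF20B at 2.79 and KIF1B at 2.66. DNA repair and replication genes had one in 18 of 29 (42.3 to 79.3%), with 8 strict. The helicase BLM led them at 2.96, with MCM3, of the replicative helicase, at 0.46. Ubiquitin-specific proteases had one in 25 of 43 (42.1 to 73.0%), from USP47 at 3.76 and USP16 at 2.70 to USP14 and USP4 at 0.56. A strict one was in 5 of the 43 (11.6%), beside 14.3% of all coding genes. The intervals of the repair and protease lists took in the 46.2% of all coding genes.

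Several metabolic and housekeeping lists lay near the background in frequency. Aminoacyl-tRNA synthetases had a coding exon peak in 11 of 20, glycolysis in 8 of 15, cholesterol and fatty acid synthesis in 13 of 25, translation initiation factors in 12 of 25 and the proteasome in 14 of 31. Strict peaks were in 0, 0, 3, 4 and 1 members of these lists. The intervals of these shares, with upper limits of 16.8, 21.8, 31.2, 36.1 and 16.7% in the same order, all took in the 14.3% of all coding genes. WARS1 at 1.24 led the synthetases and SARS1 was at 0.52. PDK1 at 1.20 led glycolysis and ENO1 was at 0.48. IDI1 and ELOVL6 led the lipid list at 1.64 and 1.51, and CYP51A1 was at 0.42. The IDI1 peak, 101 nt wide with a listed adjusted p of 0.0408, was not a strict one. EIF3C at 2.71, with its near-identical copy, and EIF4G3 at 1.38 led the initiation factors, and EIF2S3 was at 0.43. PSMC5 at 1.31 and PSMD4 at 0.90 led the proteasome, and PSMD6 was at 0.39.

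Other lists were below the background in frequency. Replication-dependent histones, short and intronless, had a coding exon peak in 3 of 59 (5.08%, 1.06 to 14.1%): H2AC4, H2AC11 and H2BC5, at 0.46, 0.40 and 0.37. Genes listed as intronless had one in 4 of 19 (21.1%, 6.05 to 45.6%). These were the HSP70 genes HSPA1B at 1.78 and HSPA1A at 1.36, which are near-identical copies, ZXDB at 1.19 and CEBPA at 0.94. All 15 others had a peak listed under 3' UTR. In a gene without introns such a peak can reach into the coding sequence: the 3' UTR peaks covered from 10.4 to 85.6% of the gene's span, with a median of 42.3%. Introns were not checked for this list, and PURA and KLF16, at 18.1 and 14.6%, had listed spans of 17843 and 11181 bases. RHOB, a small GTPase, was at 85.6%, and the transcription factors CEBPB and JUNB at 83.7 and 79.3%. Among immediate early and short-lived regulators a coding exon peak was in 6 of 27 (22.2%, 8.62 to 42.3%), EGR1 at 1.75 and PPP1R15A at 1.47 the highest and ID2 at 0.56 the lowest, while JUN, FOS, ATF3 and DUSP1 had none. Every one of the 27 had a 3' UTR peak.

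Solute carriers had a coding exon peak in 52 of 178 (29.2%, 22.7 to 36.5%), from SLC17A4 at 2.75 and SLC45A3 at 2.43 to SLC22A9 at 0.32. Cytosolic ribosomal protein genes had one in 25 of 82 (30.5%, 20.8 to 41.6%), with 2 strict: RPL9 at 1.21 and RPL3 at 1.09, while RPS4X was at 0.30. Nuclear genes of oxidative phosphorylation had one in 15 of 45 and serine-arginine rich and hnRNP splicing factors in 8 of 24, with no strict peak in either (upper limits 7.87 and 14.2% of members). The intervals of these frequencies, with upper limits of 49.0 and 55.3%, took in the 46.2% of all coding genes. SDHC at 0.74 and SRSF5 at 0.75 led them, and NDUFA9 at 0.45 and HNRNPA1 at 0.40 were lowest. ZNF zinc finger genes, whose finger arrays are usually coded in 1 long last exon, were below the background in frequency, at 110 of 304 (36.2%, 30.8 to 41.9%), and above it in strict peaks, at 66 of 304 (21.7%, 17.2 to 26.8%). Their median strongest log2 fold was 1.59, and 94.5% of their hosts also had a 3' UTR peak. ZNF322 reached 4.50 and ZNF628 3.87, and ZNF805 and ZNF146 were at 0.59 and 0.51. The ZNF322 peak, with a listed adjusted p of 0.00311, was not a strict one.

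**Figure D5:**
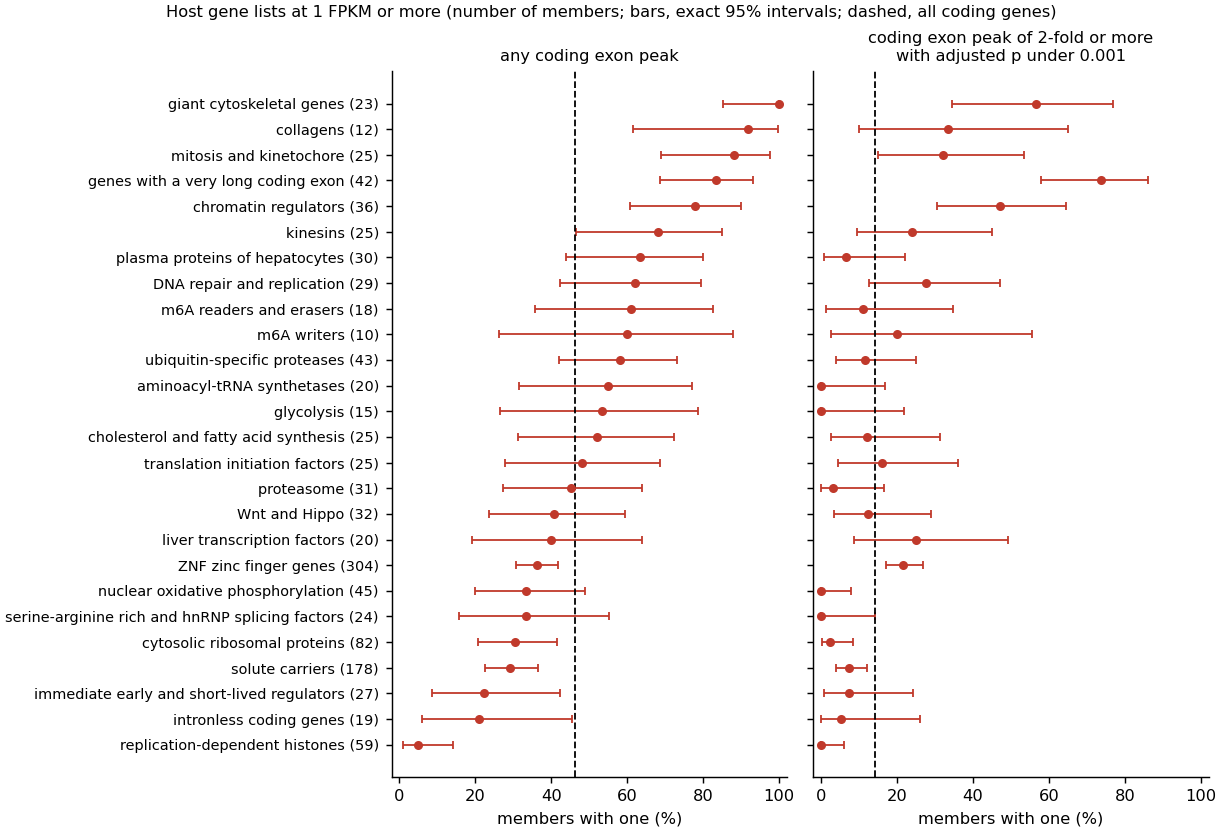
Share of members at 1 FPKM or more (x axis, %) with any coding exon peak (left) and with a strict one (right) for 26 gene lists, with the number of members in brackets and exact 95% intervals; dashed lines mark all coding genes, 46.2% and 14.3%. The giant cytoskeletal list, which also holds other giant genes, is at 100% on the left, and the very long exon list is highest on the right at 73.8%. ZNF genes lie left of the line in the first panel and right of it in the second.

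Liver genes were described in lists of plasma proteins and of transcription factors, whose intervals overlapped each other. Plasma proteins of hepatocytes had a coding exon peak in 19 of 30 (63.3%, 43.9 to 80.1%), at a median of 107.0 FPKM, and a strict one in 2 (6.67%, 0.82 to 22.1%). These were KNG1, the kininogen precursor of bradykinin, at 2.99 and the coagulation cofactor F5 at 1.70 with 6 peaks, while ALB and RBP4 were at 0.44 and 0.29. APOB, APOA1, FGA, FGB and HP were among the 11 with none, and 3 of those 11 had a 3' UTR peak named through a decay transcript. Liver transcription factors had one in 8 of 20 (19.1 to 63.9%) and a strict one in 5 (25.0%, 8.66 to 49.1%). NR5A2, a nuclear receptor of bile acid and cholesterol metabolism, reached 3.60 and ONECUT1 1.78, while CEBPA was at 0.94, and HNF4A, FOXA1 and FOXA2 were among those with none. All 20 had a 3' UTR peak. Wnt and Hippo genes had a coding exon peak in 13 of 32, led by the destruction complex scaffold AXIN1 at 3.36, which had no 3' UTR peak, and the Hippo adaptor SAV1 at 2.20, with TEAD1 at 0.47.

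In the m6A machinery itself, 2 of 10 writers had a strict peak, beside 14.3% of all coding genes. Any coding exon peak was in 6 of the 10 (26.2 to 87.8%), an interval that took in the 46.2% of all coding genes. VIRMA, the scaffold that steers the complex to 3' ends, had 5, the strongest at 2.40, against 1.10 in its 3' UTR. ZC3H13, which anchors the complex in the nucleus, had 4, up to 1.85, and 3.50 in its 3' UTR. METTL16, which methylates U6 snRNA and MAT2A, had 1 at 1.00, WTAP, the adaptor subunit, 2 up to 0.92, PCIF1, which methylates the base next to the cap, 1 at 0.90, and METTL3, the catalytic subunit, 1 at 0.78. The partner subunit METTL14, the RNA-binding subunits RBM15 and RBM15B and the ligase CBLL1 had none, with 3' UTR peaks at 2.35, 3.63, 2.62 and 1.79. In RBM15 the 3' UTR peak covered 88.4% of the gene's span. Readers and erasers had a coding exon peak in 11 of 18 (35.7 to 82.7%, which also took in 46.2%) and a strict one in 2. They were led by PRRC2A, a reader, at 2.51 with 6 peaks, and the nuclear reader YTHDC1 at 2.01. HNRNPC and IGF2BP2 were at 0.51 and 0.45. The erasers FTO and ALKBH5 and the cytoplasmic readers YTHDF1, YTHDF2 and YTHDF3 had none, and peaks listed under 3' UTR covered 86.4, 82.3 and 80.0% of the span of the 3 YTHDF genes.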

How the data were processed

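Peaks came from 1 IP and 1 input library of Huh-7 cells. The tools named in the submitters' processing notes, with no role or version, are edgeR, StringTie, HOMER, HISAT2, FastQC and fastp. The peak caller, its settings, the genome build and the scaling of IP to input were not given in the sources used here. Per the file headers, the authors' deposited peak table holds for each peak its log2 fold (IP against input), p-value, adjusted p-value and length, with a region, a transcript with its type and a gene. Values from the authors' deposited table were copied, not refitted. Listed p-values reached 0.0500 and adjusted ones 0.0635. Lengths equal end minus start plus 1, so positions count from 1. The deposited gene table holds, per the file headers, input FPKM values of 25105 genes, as the authors computed them. With values as low as 1.78e-07, whole reads, depth and a limit for a level of 0 could not be derived. Spans of 19112 genes matched by symbol overlapped GRCh38.p14 in 99.9% of cases, and positions are printed as the files give them.

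Here, peaks and genes were joined by gene ID. A RefSeq table (GRCh38.p14) gave the biotype by symbol or unique synonym (77.7% of genes), and coding genes at 1 FPKM or more are called expressed. A gene's fold is that of its strongest peak of the region. Shares carry Clopper-Pearson 95% intervals and medians order-statistic ones. Python 3.11.15, pandas 2.3.3, numpy 2.4.6, SciPy 1.17.1 and matplotlib 3.10.9 were used, and the code was tested on simulated data. Alternatives limited peaks by fold and adjusted p, width, strand overlap or transcript type, moved the FPKM minimum, or left out TTN or genes over 50000 bases. Members, gene lists and rules were chosen with earlier results of these data known. Genes are named by a rule: the 10 strongest peaks at 5 FPKM or more, the genes with most peaks, the 10 highest-level hosts without a 3' UTR peak, the 5 widest and narrowest peaks, the 2 highest and lowest of each list, and all writers; others are marked as chosen after their values were seen or illustrate an end of a comparison. A few genes the rule names are not reported here. The RefSeq start windows hold the first 50 bases of a gene, of which 30 are printed.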

Additional observations from a re-analysis of the deposited data

How the results depend on the processing

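No paired analysis was possible because there is 1 library per group with no replicate number, and for the same reason no library could be left out. Limited to peaks that reached 2-fold and an adjusted p under 0.001, coding exon peaks were 14.8% of the list, with a median width of 2630 nt, a median log2 fold of 1.82, a 3' UTR peak in 61.3% of hosts, the coding exon higher in 38.6% of genes with both, a host level of 4.30 FPKM, 14.3% of coding genes as hosts and 17.4% of hosts with several peaks, against 20.7%, 1759 nt, 0.88, 88.0%, 29.1%, 5.91 FPKM, 46.2% and 40.8% as listed. Without peaks that overlap a listed peak on the other strand, the share was 22.3%, 3' UTR co-occurrence 83.1%, the coding exon higher in 30.6% and hosts 44.5%. At most 1000 nt, the median width was 351 nt, co-occurrence 68.8% and the gap 7003 bases, against 8197. At 5 FPKM or more, host level was 10.1 FPKM and hosts 48.2%. With no minimum, they were 4.98 FPKM and 39.2%, and co-occurrence 83.9%. At an adjusted p under 0.05, hosts were 45.1%. In genes of at most 50000 bases, 7.16% of midpoints lay in the last decile, against 12.3%. Alternatives chosen after seeing the data were peaks on the 25-base grid (326 nt, log2 1.00, co-occurrence 68.4%, coding exon higher in 30.7%, last decile 16.7%) and peaks on protein-coding transcripts (co-occurrence 79.1%, coding exon higher in 31.2%, gap 10063 bases). Where values moved the cause was not tested, beyond the fewer peaks or genes each limit leaves. The 3' UTR was the stronger in most genes under each alternative run. Of the 26 lists, 18 stayed on their side of all coding genes at the strict limit, 21 with no FPKM minimum, 25 at 5 FPKM and at an adjusted p under 0.05, and 26 without strand overlaps. Depth and a spread between libraries are unknown, so no difference here has a replicate check.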

Other observations

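The clustered protocadherin genes, cell adhesion genes whose variable first exons each code for a whole extracellular part, held 40 coding exon peaks in 25 genes, of 92 listed peaks of these genes. Of the 40, 38 were on the 25-base grid, against 33.0% of all coding exon peaks, and 32 were at 4-fold or more, against 12.0%. Their median width was 751 nt and their median log2 fold 2.44, against 1759 nt and 0.88. At 1 FPKM or more 11 of 26 had one, beside 46.2% of all coding genes. Only 11 of the 25 hosts thus reached 1 FPKM. Among coding genes above that level, folds were higher at low input levels, and the part of level here was not tested. The variable exons resemble each other, so reads may have been shared between copies, and 8 of the 40 overlapped a listed peak on the other strand. PCDHGA10 had 1 of 2801 nt with a log2 fold of 4.20. These genes were singled out after their values were seen.

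The mitochondrial genome held 8 coding exon peaks in 6 genes and no UTR peak. Whether the annotation gives these genes any UTR was not checked, so the lack of UTR peaks carries no result. The log2 fold was 1.40 in MT-ND2, 1.29 in MT-ND6 and 1.14 in MT-CO3, from 0.78 to 1.05 in 3 peaks of MT-ND5, and 0.54 and 0.52 in MT-ND1 and MT-ND4. The 1 peak with an adjusted p under 0.001 was that of MT-ND1, at 0.000101.

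By the gene ontology terms in the peak table, chosen after the columns were seen, a coding exon peak was found in 71.8% of 39 genes for microtubule motor activity (55.1 to 85.0%), 47 of 77 for chromatin (49.2 to 72.0%), 60.9% of 787 for ATP binding (57.4 to 64.3%) and 58.1% of 720 for the cytoskeleton (54.4 to 61.7%). It was found in 40.4% of 1054 for the mitochondrion, 34.2% of 582 for the endoplasmic reticulum membrane (30.3 to 38.2%) and 29.7% of 148 structural constituents of the ribosome (22.5 to 37.8%), beside 46.2% of all coding genes. Median genomic span was 58991 bases for microtubule motors and 7101.5 for ribosome constituents, but it did not follow the shares throughout: it was 37926 for chromatin and 34458 for the endoplasmic reticulum membrane, beside 32802 for all coding genes. The part of span in the shares was not tested. The terms come with listed peaks, so a class holds only genes with a listed peak. The 46.2% is over all expressed coding genes, with or without a peak. The class shares and the 46.2% thus have unlike bases, and how far this moved the shares was not measured.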
